A study of Mus musculus with 8 samples.

Results

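Troponin and tropomyosin are the regulatory proteins of the thin filament, the actin strand of striated muscle. Tropomyosin lies along the actin strand and covers its myosin-binding sites, troponin C binds calcium, troponin I holds the strand in the blocked state, and troponin T fastens the complex to tropomyosin. Separate genes encode the forms of fast fibres, slow fibres and heart, and the set used is a common sign of fibre type. Described here are 10 such genes, listed by name, of the 23282 rows of each gene table: Tnnt1, Tnnt2 and Tnnt3 (slow, cardiac and fast troponin T), Tnni1 and Tnni2 (slow and fast troponin I), Tnnc1 and Tnnc2 (slow and cardiac, and fast, troponin C), Tpm1 (alpha tropomyosin, of fast fibres and heart), Tpm2 (beta tropomyosin, of fast and slow fibres) and Tpm3 (the slow form). Each had 1 row in all 8 tables, and all 10 passed the filter on low counts.

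RNA came from the gastrocnemius, a calf muscle made mostly of fast fibres, of C57BL/6 mice listed as 4 weeks old, and was sequenced from the 3' ends of its transcripts. Mice of the group titled Normal (3 libraries) were injected under the skin with saline, and those titled Control (3 libraries) and RP (2 libraries) with 1000000 Lewis lung carcinoma cells, a mouse lung tumour line. After 2 weeks of tumour growth, mice were regrouped so that tumour sizes matched, and for another 2 weeks Normal and Control mice were given distilled water by mouth while RP mice were given 100 mg/kg daily of a 30% ethanol extract of the peony Paeonia lactiflora. The series asked how a tumour and the extract act on wasting muscle. The deposited tables of the 6 Normal-titled and Control-titled samples carry the other group's name in their headers, so each direction below holds for titles: if the headers were right, the sign of Control against Normal would turn and the comparisons of RP with these groups would change places.

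Libraries held 9528011 to 12333767 counts, and all 8 markers of skeletal muscle looked up were present. Values are CPM, counts per 1000000 counts of the library, scaled by the trimmed mean of M values (TMM). A read was taken near the end of each transcript, so counts were not divided by gene length. Haemoglobin genes took 4.57 to 19.7% of the counts in Normal-titled, 1.41 to 1.61% in Control-titled and 0.862 and 3.83% in RP libraries. The labels do not say that each library is 1 animal, so p-values measure the spread between these libraries, which may be technical.

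The fast-fibre forms were far more abundant than the other genes in every library. Over the 8 libraries Tnnc2 averaged 26130 CPM (15360 to 32790), Tpm1 21520 CPM (13830 to 29250), Tnni2 17200 CPM (11360 to 20500) and Tnnt3 12850 CPM (9779 to 15340). The ranges of these neighbours in the order overlapped. None of the other 6 reached the lowest of them: Tpm2 averaged 859 CPM, Tpm3 378, Tnnt1 291, Tnnc1 239 and Tnni1 106. The ranges of Tpm3 (297 to 427), Tnnt1 (198 to 403) and Tnnc1 (192 to 327) overlapped, while Tpm2 (708 to 1119) lay above all 3 and Tnni1 (88.5 to 142) below all 3. Cardiac Tnnt2 was last, at 1.62 to 4.56 CPM, which rests on 15 to 47 reads a library. The 10 genes together took 5.49 to 6.41% of all counts in Normal-titled, 8.55 to 9.30% in Control-titled and 8.93 and 9.43% in RP libraries.

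**Figure D1:**
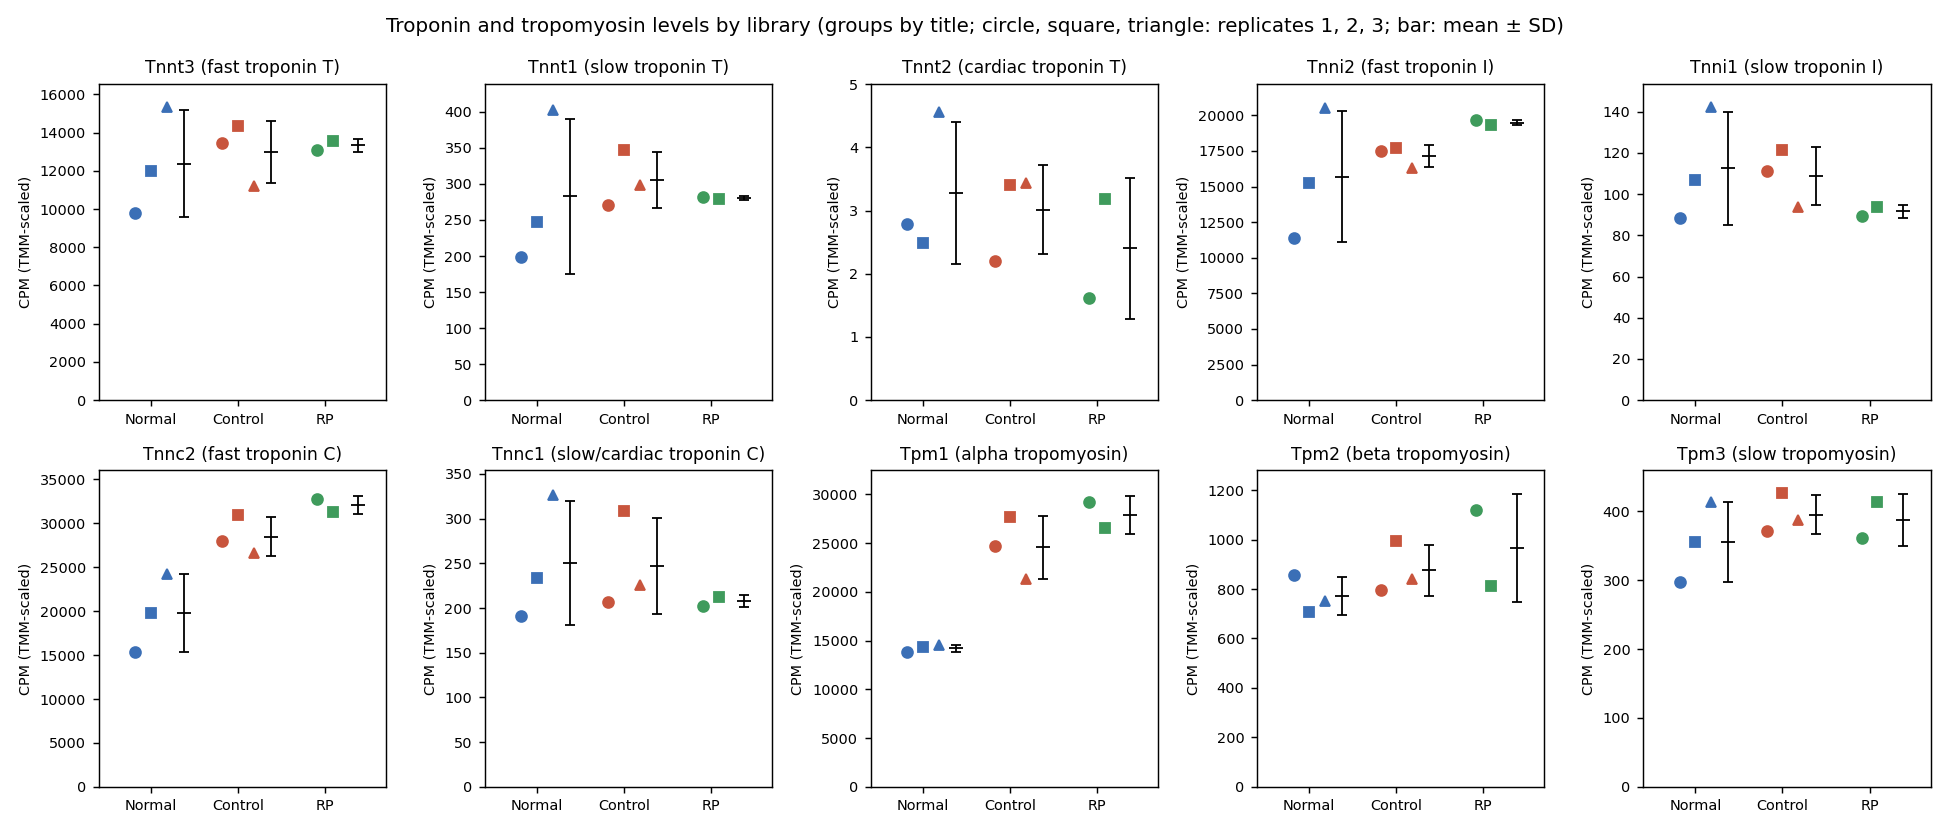
TMM-scaled CPM of each of the 10 genes (linear axes from 0) in the 8 libraries, by titled group, with the mean and SD (n = 3, 3 and 2). With this scaling, the Normal-titled libraries of Tpm1 sit close together (13830 to 14540 CPM) and apart from all Control-titled and RP libraries (21280 to 29250 CPM). Unscaled, they ran from 12150 to 14600 CPM and the others from 23570 to 28490 CPM.

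Tpm1 was the only one of the 10 genes that changed in the test, and it was higher in the Control-titled and RP libraries than in the Normal-titled ones. It stood at 13830, 14310 and 14540 CPM in Normal 1, 2 and 3, at 24710, 27690 and 21280 CPM in Control 1, 2 and 3, and at 29250 and 26520 CPM in RP 1 and 2. The Normal-titled libraries were the low ones and did not overlap with either other group, while the Control-titled and RP ranges did overlap. How many of all tested genes separate like this was not counted, here or for the other separations below. Against the Normal-titled mean of 14230 ± 364 CPM (SD, n = 3), the Control-titled mean of 24560 ± 3207 (SD, n = 3) was 1.73-fold higher (95% interval 1.36 to 2.18; log2 change 0.79 ± 0.157 (SE), adjusted p = 0.00655, edgeR's quasi-likelihood test). The RP mean of 27890 ± 1936 CPM (SD, n = 2) was 1.96-fold above the same Normal-titled libraries (95% interval 1.51 to 2.54; log2 change 0.97 ± 0.172 (SE), edgeR adjusted p = 0.00997). These comparisons share the 3 Normal-titled libraries and are not independent of each other.

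Called genes, those with an adjusted p under 0.05, made up 10.4% of the 13174 genes tested in Control against Normal (4.99% called higher), so 1 of 10 troponin and tropomyosin genes is a share like that of all genes. In RP against Normal the share of all genes was 2.50% (1.67% higher), and Tpm1 was again the 1 of 10. The first call held in all 17 alternatives, with adjusted p between 4.22e-06 (DESeq2) and 0.0489 (edgeR, without Control 1). The second was lost in 3 of 17, among them edgeR with only the 2 groups in the fit (adjusted p = 0.0775) and without RP 1 (adjusted p = 0.162), while the log2 change stayed between 0.90 and 1.04 in all alternatives.

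Fast troponin C had the same order of group means as Tpm1 without passing the threshold. That order, Normal, Control, RP, was also seen for Tnnt3 (12370, 13010 and 13340 CPM), Tnni2 (15700, 17160 and 19500) and Tpm2 (772, 876 and 965). Tnnc2, the calcium sensor of fast fibres, stood at 15360, 19810 and 24280 CPM in Normal 1, 2 and 3, at 27950, 30930 and 26600 CPM in Control 1, 2 and 3, and at 32790 and 31310 CPM in RP 1 and 2. All Normal-titled libraries were lower than all others, and both RP libraries were higher than all Control-titled ones. Separation of this kind was not counted over all tested genes. The Normal-titled values had the widest spread. The log2 change was 0.52 ± 0.181 (SE) in Control against Normal (edgeR adjusted p = 0.0847) and 0.69 ± 0.200 (SE) in RP against Normal (edgeR adjusted p = 0.0876). Both were called in 3 of 17 alternatives, with adjusted p up to 0.239 and 0.4 in the others. Both passed without Normal 3, where the log2 changes were 0.69 and 0.88 (edgeR adjusted p = 0.00977 and 0.00846), in DESeq2 (adjusted p = 0.0317 and 0.0124) and in edgeR with no filter (adjusted p = 0.0409 and 0.0217).

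**Figure D2:**
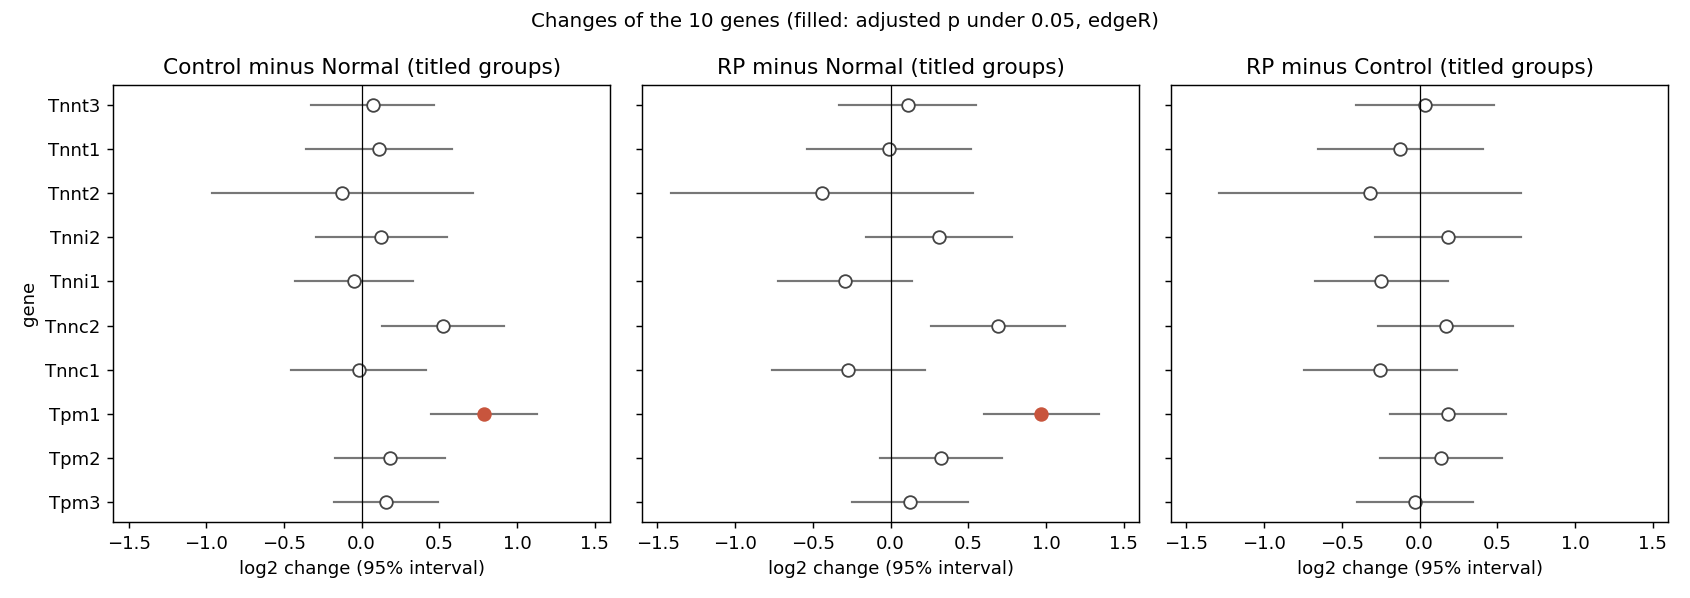
Log2 change of each gene (points) with its 95% interval (lines) in the 3 comparisons of titled groups; filled points have an edgeR adjusted p under 0.05. Tpm1 is filled against Normal at 0.79 and 0.97, Tnnc2 stands next at 0.52 and 0.69, and all 10 intervals of RP against Control cross 0.

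Upstream sequence is shown for these 2 fast genes and for slow Tnnc1, whose level did not follow theirs, from RefSeq (GRCm38.p6, the assembly of build mm10), 5′ to 3′ on the gene's strand. Capitals mark E-boxes (CANNTG, the core bound by myogenic factors such as MyoD) and M-CAT motifs (CATTCC, bound by TEAD factors), searched on both strands. For Tnnc2 (chr2:164779735-164779984, minus strand) and Tnnc1 (chr14:31208062-31208311, plus strand) the 250 bases before the RefSeq start are given. Most of the Tnnc2 window lies inside the gene as GENCODE M21 annotates it, where a noncoding transcript starts further upstream. For Tpm1 (chr9:67049252-67049281, minus strand) only the 30 bases around its M-CAT motif are given, because the untranslated first exons of GENCODE coding transcripts cover part of its window. These 30 bases also lie inside the gene as GENCODE M21 annotates it (67022590 to 67049406).
Tnnc2: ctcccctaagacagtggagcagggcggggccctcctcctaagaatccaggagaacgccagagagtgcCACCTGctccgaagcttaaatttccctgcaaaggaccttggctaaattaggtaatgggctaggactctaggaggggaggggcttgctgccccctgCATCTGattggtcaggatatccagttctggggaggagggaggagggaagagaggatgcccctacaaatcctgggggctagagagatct
Tnnc1: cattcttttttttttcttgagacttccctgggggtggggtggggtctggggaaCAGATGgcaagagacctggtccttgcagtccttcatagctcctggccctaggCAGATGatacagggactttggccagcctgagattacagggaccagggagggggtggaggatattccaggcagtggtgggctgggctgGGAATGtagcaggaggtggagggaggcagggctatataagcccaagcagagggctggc
Tpm1: tggctgtcctaaGGAATGcggtcgcccccc

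Promoters were found for 8 of the 10 genes, and Tnnt3 and Tnni2 are named only. All 8 held an E-box, as did 66.2% of the 32851 windows of the same length. An M-CAT motif stood 56 bases before the RefSeq start of Tpm1, 58 before that of Tnnc1 and 27 before 1 of the 2 RefSeq starts of Tnnt2, so in 3 of 8 genes. Of all windows 12.6% held it. Tnnt2, Tnni1 and Tpm3 have 2 windows each and counted if either matched, so counts of genes and shares of windows are not like for like. Tnnc2 holds 2 E-boxes and no M-CAT letters in its window. No window of the 8 genes matched the MEF2 or CArG box consensus, which 2.92% and 1.47% of all windows hold.

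The fast forms of troponin T and I did not pass the test. Tnnt3, the fast anchor to tropomyosin, stood at 9779, 11990 and 15340 CPM in Normal 1, 2 and 3, at 13440, 14370 and 11210 CPM in Control 1, 2 and 3, and at 13090 and 13580 CPM in RP 1 and 2. The Normal-titled libraries spanned the whole range of the other 5, so the groups overlapped. Its log2 change in Control against Normal was 0.07 ± 0.183 (SE), with a 95% interval of 0.80 to 1.38-fold and edgeR adjusted p = 0.847, which leaves room for a change in either direction. Tnni2, the fast inhibitory subunit, ranged from 11360 to 20500 CPM in Normal-titled, 16270 to 17700 in Control-titled and 19350 to 19640 in RP libraries. Its log2 changes against Normal were 0.13 ± 0.196 (SE) for Control and 0.31 ± 0.218 (SE) for RP, with edgeR adjusted p = 0.731 and 0.505.

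Counts of the fast genes relative to each other within a library do not depend on scaling between libraries. Tpm1 reads per Tnnt3 read numbered 1.41, 1.19 and 0.95 in Normal 1, 2 and 3, 1.84, 1.93 and 1.90 in Control 1, 2 and 3, and 2.23 and 1.95 in RP 1 and 2. Tnnc2 reads per Tnnt3 read numbered 1.57 to 1.65 in Normal-titled, 2.08 to 2.37 in Control-titled and 2.50 and 2.31 in RP libraries. In both ratios every Normal-titled library lay below every other library. The ratio of Tnni2 to Tnnt3 overlapped between groups, from 1.16 to 1.34, 1.23 to 1.45 and 1.42 to 1.5. In these libraries Tpm1 and Tnnc2 counts relative to Tnnt3 were thus lower in the Normal-titled group. Whether the fast genes differ in their change was not tested. These ratios are given without a p: with 3 libraries against 3, or 3 against 2, an exact permutation test of 1 value cannot go below 0.1.

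**Figure D3:**
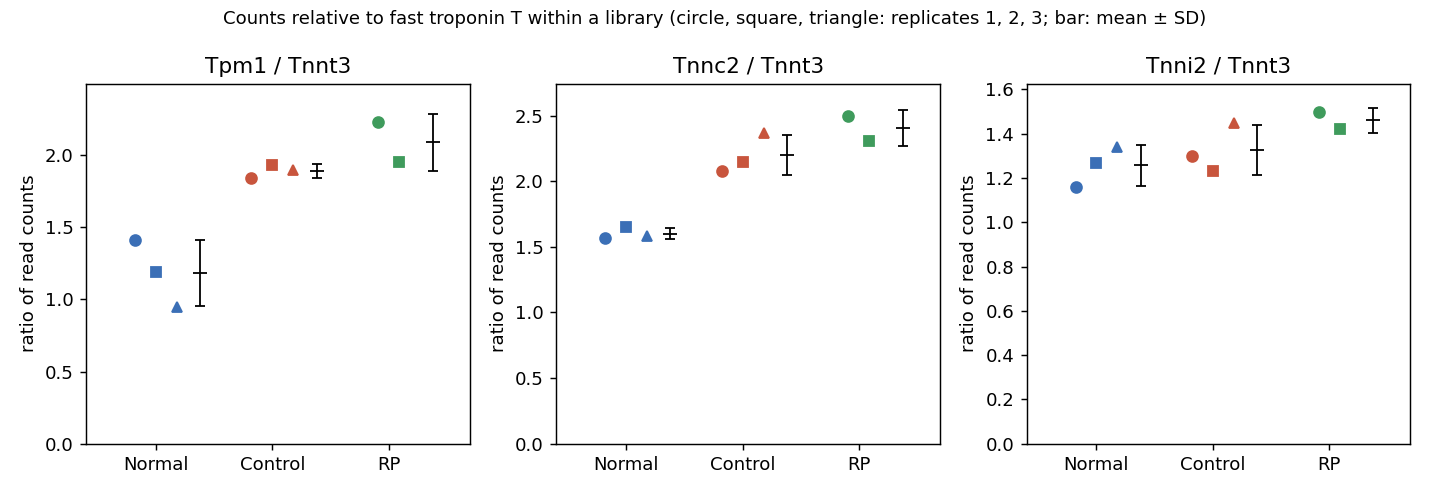
Read counts of Tpm1, Tnnc2 and Tnni2 divided by those of Tnnt3 in the same library (linear axes from 0), by titled group, with the mean and SD. The Tpm1 and Tnnc2 ratios of the 3 Normal-titled libraries (0.95 to 1.41 and 1.57 to 1.65) lie below those of the other 5, while the Tnni2 ratios overlap.

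The slow troponin genes and the slow tropomyosin gene showed no change that passed the test in any comparison. Tnnt1, slow troponin T, stood at 198, 247 and 403 CPM in Normal 1, 2 and 3, at 271, 347 and 299 CPM in Control 1, 2 and 3, and at 282 and 279 CPM in RP 1 and 2. The groups overlapped, and the highest and the lowest value were both in Normal-titled libraries. Its log2 change was 0.11 ± 0.219 (SE) in Control against Normal (edgeR adjusted p = 0.792) and -0.12 ± 0.246 (SE) in RP against Control (edgeR adjusted p = 0.927). Tnni1, slow troponin I, stood at 88.5, 107 and 142 CPM in Normal 1, 2 and 3, at 111, 121 and 93.8 CPM in Control 1, 2 and 3, and at 89.5 and 94.0 CPM in RP 1 and 2. Both RP values lay at the low end without leaving the range of the Normal-titled libraries.

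Tnnc1, the calcium sensor shared by slow fibres and heart, ranged from 192 to 327 CPM in Normal-titled, 207 to 308 in Control-titled and 203 to 212 in RP libraries. The log2 changes of Tnni1 and Tnnc1 in RP against Control were -0.25 ± 0.199 (SE) and -0.25 ± 0.228 (SE), with edgeR adjusted p = 0.774 and 0.808. Tpm3, the slow tropomyosin, ranged from 297 to 413, 372 to 427 and 360 to 414 CPM in the 3 groups and Tpm2, the beta form, from 708 to 857, 795 to 992 and 811 to 1119 CPM. In Control against Normal the 95% intervals were 0.88 to 1.40-fold for Tpm3 and 0.89 to 1.45-fold for Tpm2. Both include no change, and both overlap the 1.36 to 2.18-fold of Tpm1. The difference between genes was not tested.

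The share of slow forms within each subunit, a percentage of counts inside 1 library, was small throughout. Differences between groups in these shares were not tested. Tnnt1 made up 1.99, 2.01 and 2.56% of Tnnt1 plus Tnnt3 in Normal 1, 2 and 3, 1.97, 2.36 and 2.60% in Control 1, 2 and 3, and 2.11 and 2.01% in RP 1 and 2, so the groups overlapped. Tnni1 made up 0.773, 0.695 and 0.689% of troponin I in Normal 1, 2 and 3, 0.631, 0.681 and 0.573% in Control 1, 2 and 3, and 0.453 and 0.483% in RP 1 and 2. These 3 ranges did not overlap, with RP lowest, although Control 2 and Normal 3 differed by less than their 95% Wilson intervals (0.644 to 0.720% and 0.654 to 0.725%). Tnnc1 made up 1.23, 1.16 and 1.33% of troponin C in Normal 1, 2 and 3, 0.736, 0.987 and 0.842% in Control 1, 2 and 3, and 0.614 and 0.673% in RP 1 and 2, again with no overlap. Wilson intervals cover counting error only, since PCR copies of a molecule cannot be recognised in these counts.

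Between groups, the mean Tpm2 and Tpm3 shares were lower where the mean of Tpm1, most of the tropomyosin counts, was higher. Inside the RP group this did not hold for Tpm2. RP 1 had more Tpm1 than RP 2 (29250 and 26520 CPM), with a lower Tpm3 share but a higher Tpm2 share (3.64 and 2.92%). Tpm3 made up 1.98 to 2.63% of Tpm1, Tpm2 and Tpm3 counts in Normal-titled, 1.44 to 1.72% in Control-titled and 1.17 and 1.49% in RP libraries, and Tpm2 made up 4.6 to 5.72%, 3.07 to 3.74% and 2.92 to 3.64%. For Tnnc1, Tpm2 and Tpm3 the lower share in Control-titled libraries went with a higher mean of Tnnc2 or Tpm1 and no called change in their own. Tnnc1 averaged 251 ± 69.2 CPM (SD, n = 3) in Normal-titled and 247 ± 53.8 CPM (SD, n = 3) in Control-titled libraries. The higher mean of Tnnc2 did not pass the test (edgeR adjusted p = 0.0847), and the part of each partner in the share was not tested. For Tnni1 in RP, both the lower mean of Tnni1 (91.7 against 109 CPM in Control) and the higher mean of Tnni2 (19500 against 17160 CPM) enter the share, and neither passed the test.

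**Figure D4:**
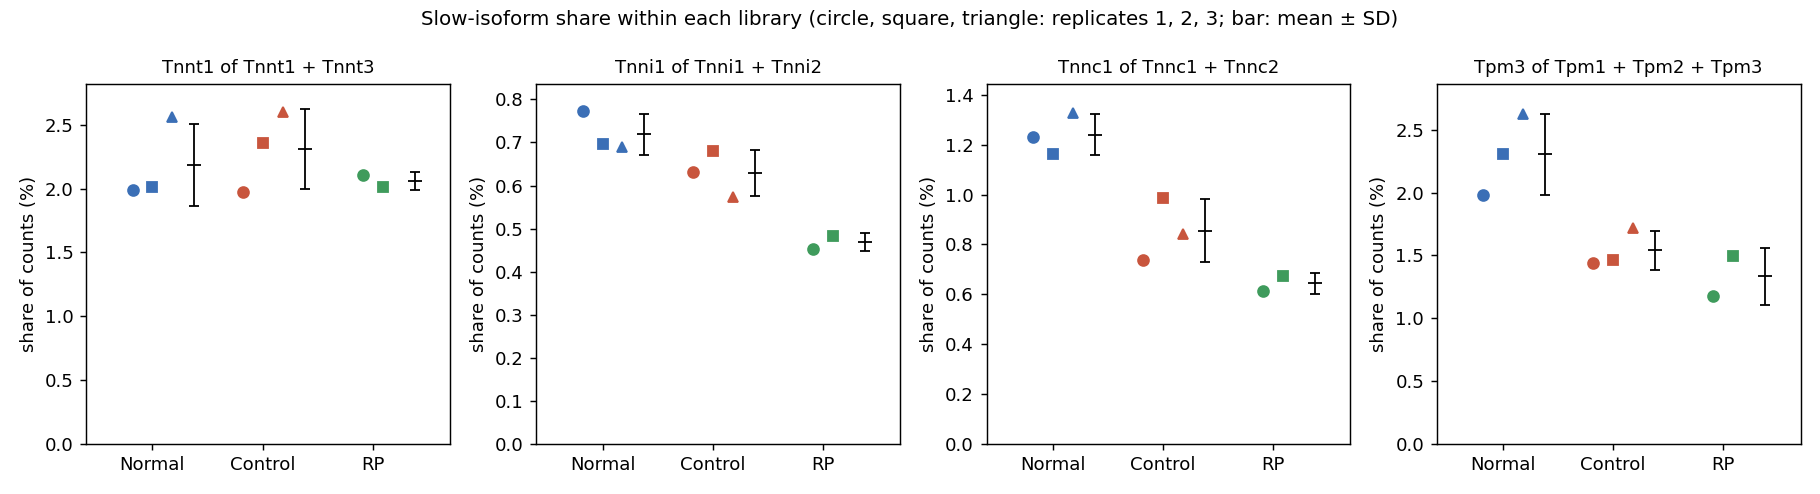
Percent of counts from the slow gene within troponin T, I and C and within tropomyosin, for each library (axes from 0), with the mean and SD of each titled group. Troponin T shares overlap between groups (1.97 to 2.60%), while for troponin C all Normal-titled libraries (1.16 to 1.33%) lie above all others (0.614 to 0.987%).

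Cardiac troponin T was close to the limit of detection. Tnnt2 had 31, 26 and 47 reads in Normal 1, 2 and 3, 25, 34 and 38 in Control 1, 2 and 3, and 15 and 31 in RP 1 and 2, or 0.012 to 0.030% of all troponin T counts. The groups overlapped, and the 95% intervals of its fold were 0.51 to 1.64 in Control against Normal and 0.41 to 1.57 in RP against Control, wider than for any other of the 10 genes (edgeR adjusted p = 0.879 and 0.878). Of 9 heart markers, Nppb and Gata4 had no read in any library, Nppa had 0 to 6, and cardiac troponin I, Tnni3, had 1 to 6 reads a library. The heart list summed to 15.8 to 27.0 CPM in Normal-titled, 13 to 17.2 in Control-titled and 16.6 to 21.1 in RP libraries, most of it from the myosin gene Myh6 (11.6 to 26.2 CPM). Cardiac actin behaved differently from cardiac troponin T: Actc1 averaged 126 CPM in Normal-titled, 1416 in Control-titled and 908 in RP libraries (log2 change 3.49 ± 0.291 (SE) in Control against Normal, edgeR adjusted p = 3.03e-05).

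Troponin T and I genes sit in pairs in the genome. On chromosome 7 of GRCm38, fast Tnni2 (142441808 to 142444410) lies 54425 bases before fast Tnnt3 (142498836 to 142516009), with Lsp1 between them, and both are abundant. On chromosome 1, slow Tnni1 (135779434 to 135810989) and cardiac Tnnt2 (135836354 to 135852260) are 25364 bases apart with Lad1 between, and their mean levels were 106 and 2.96 CPM. Slow Tnnt1 (chromosome 7, 4504570 to 4516382) lies 1922 bases from cardiac Tnni3, with means of 291 and 0.341 CPM. Tpm1 lies at chromosome 9, 67022590 to 67049406, and its count sums all its striated, smooth muscle and other splice forms.

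Overlapping genes and copies bear on a few of the counts, because the strand counted is not stated. Tnnc2 (chromosome 2, 164777161 to 164779967) overlaps Ube2c on the other strand, Tnnc1 (chromosome 14, 31208312 to 31211729) overlaps Nisch, and Tnnt3 overlaps Prr33. Ube2c averaged 3.56 CPM, Nisch 31.4 and Prr33 105, each less than its troponin neighbour. Of the 50-base stretches in the last 300 bases of their coding transcripts, those of 9 genes occur in no transcript of another gene. For Tpm3, 32.9% occur also in Tpm3-rs7, which has no row in the tables used here.

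No troponin or tropomyosin gene was called in RP against Control, where 0.175% of all 13174 genes were. None reached an unadjusted p under 0.05 in edgeR, and DESeq2 and limma-voom called none of the 10 either. The log2 changes ran from -0.32 for Tnnt2 to 0.18 for Tnni2, with a median of 0.0035 against -0.0038 over all genes tested. For Tpm1 the log2 change was 0.18 ± 0.174 (SE), with a 95% interval of 0.88 to 1.47-fold (edgeR adjusted p = 0.817). The median of the 10 log2 changes was 0.12 in Control against Normal and 0.12 in RP against Normal, beside 0.00043 and -0.038 over all genes.

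Several of these genes varied widely among the Normal-titled libraries. Of the 10 genes, 8 were lowest in Normal 1 and highest in Normal 3, as were 22.1% of all tested genes. The highest value over the lowest was 2.03 for Tnnt1, 1.80 for Tnni2, 1.57 for Tnnt3 and 1.05 for Tpm1. Haemoglobin genes took 4.57% of counts in Normal 1, 9.56% in Normal 2 and 19.7% in Normal 3, and the TMM factor of Normal 3, at 0.836, was the lowest of the 8. With no TMM scaling these ratios were 1.61, 1.43, 1.24 and 1.2. The order was not kept for all: unscaled Tpm1 stood at 14600, 14430 and 12150 CPM in Normal 1, 2 and 3, so Normal 3 was lowest. Unscaled Tpm3 was highest in Normal 2, at 358 CPM. The part of red-cell RNA in this spread was not tested. With haemoglobin genes and Rn45s removed before scaling, the log2 change of Tpm1 was 0.80 in Control against Normal.

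Partners on the thin filament changed in both directions in Control against Normal. Of 17 listed genes, 16 were tested, and 1 was higher and 3 lower, with a median log2 change of 0.045 (over all genes 4.99% were called higher, 10.4% in either direction, and the median was 0.00043). Actc1, above, was the one that rose. Nrap, which helps assemble actin into new myofibrils, fell from 704 to 316 CPM (log2 change -1.15 ± 0.155 (SE), edgeR adjusted p = 0.000572). Lmod2, a leiomodin that lengthens thin filaments, and Klhl40, a kelch protein that stabilises thin-filament proteins, had log2 changes of -0.97 and -1.39 (edgeR adjusted p = 0.0197 and 0.0105). Skeletal actin Acta1 did not pass (20490 and 27540 CPM, log2 change 0.43, edgeR adjusted p = 0.108). Against Normal, RP had 1 of these genes higher (Actc1, 2.85) and 1 lower (Nrap, -0.95), and RP against Control had none.

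Some other fibre-type genes also changed. Of 11 other fast-fibre genes, 4 were higher and 0 lower in Control against Normal, with a median log2 change of -0.066, beside the same 4.99% higher over all genes. Those 4 were the myosin light chains Myl1 (1.35) and Mylpf (0.63), the calcium store protein Casq1 (1.72) and the calcium buffer Pvalb (1.12). In RP against Normal 3 of the 11 were higher, Myl1, Casq1 and Pvalb, at 1.16, 1.67 and 1.19, beside 1.67% of all genes. In Control against Normal, of 10 other slow-fibre genes 1 was higher, the oxygen store Mb (0.54), and 1 lower, the Z-disc protein Csrp3 (-1.46), with a median of -0.16, and in RP against Normal Csrp3 alone was called (-1.37, edgeR adjusted p = 0.028). Of 12 embryonic and regeneration genes, 9 were tested, in Control against Normal with Actc1 higher and the myogenic factors Myog and Myod1 lower (-1.57 and -1.89), and in RP against Normal with Actc1 higher and Myod1 lower (2.85 and -1.19). Beside these slow-fibre and embryonic counts, 658 of all 13174 genes tested were called higher and 718 lower in Control against Normal. In RP against Normal 220 were called higher and 110 lower.

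Cells other than fibres also express Tpm1, Tpm2, Tpm3 and Tpm4, and their markers differed between groups. The 9 fibroblast and tenocyte markers summed to 5295 to 8470 CPM in Normal-titled, 9042 to 9934 in Control-titled and 7848 to 8118 in RP libraries, and 6 of 9 were higher and 0 lower in Control against Normal (4.99% of all genes were higher). In RP against Normal 4 of the 9 were higher, Col3a1, Tnmd, Kera and Lum, with log2 changes of 1.85, 2.54, 2.67 and 0.78, beside 1.67% of all genes. The 9 smooth muscle markers, which include Des of fibres, summed to 1253 to 1788, 1163 to 1235 and 1188 to 1457 CPM. Des made up most of this sum in each group. In Control against Normal, Smtn was called higher (means of 74.05 and 35.58 CPM) and Des lower (736.5 and 1187 CPM). The lower sum in Control-titled libraries thus went with Des, while the median log2 change of the 9 markers was 0.371, beside 0.00043 over all genes. Tpm4, a tropomyosin that cells other than fibres also express, averaged 158 ± 11.4 CPM (SD, n = 3) in Normal-titled and 187 ± 4.42 CPM (SD, n = 3) in Control-titled libraries and did not pass (log2 change 0.24, edgeR adjusted p = 0.264). The 8 skeletal muscle markers summed to 36830 to 45210, 44530 to 52750 and 53340 to 55630 CPM in the 3 groups. Mb and Eno3 were called higher and Des and Myot lower in Control against Normal, beside 658 and 718 of all genes tested. The part of fibre content and of these cells in the Tpm1 result was not tested, and in bulk muscle fewer cells of a type cannot be told apart from less RNA per cell. Neutrophil and erythroid markers, 8 of each, were all called lower in Control against Normal, as were 718 of the 13174 genes tested. Neutrophil markers summed to 946.8 to 1960, 11.7 to 21.2 and 35.9 to 495 CPM in the 3 groups, and erythroid markers to 29590 to 161800, 9128 to 11640 and 6399 to 27730 CPM. In RP against Normal 2 neutrophil and 3 erythroid markers were lower, beside 110 of all genes tested. In RP against Control the neutrophil markers S100a8 and S100a9 were higher (log2 changes 4.53 and 4.36), among 19 of all genes tested. In Control against Normal, of 7 endothelial markers (396 to 462, 325 to 429 and 336 to 405 CPM) 1 was lower, beside the same 718 of all genes tested. Of 7 macrophage markers (236 to 493, 365 to 518 and 290 to 458 CPM) none was called in that comparison. None of these markers was at 0 in all libraries, and their part in the troponin results was not tested.

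By pattern over the 8 libraries, the genes most like each troponin T gene came from 5509 other genes with a mean of at least 20 CPM. For Tnnt3 they were Tmem147, Setd3, Rcor3, Avpi1 and Lage3, with r of log2 CPM of 0.967 to 0.978. For Tnnt1 they were Kiz, Isca1, Tmcc2, Phf5a and Fdx1l, with r of 0.948 to 0.968. For Tnnt2 the highest r was lower, 0.839 to 0.883, for Ncoa1, Sumo2, Nde1, Snrnp40 and Ilk. These values describe 8 libraries that share groups and scaling.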

How the data were processed

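Each deposited table gives 1 library's raw counts by gene symbol, from QuantSeq 3' mRNA sequencing of 500 ng of RNA, per the labels' protocols. Bowtie2, edgeR and mm10 are named, without versions, per the submitters' processing notes; counting tool, strand and annotation are not given in the sources used here. Of 23282 rows (35 symbols listed more than once, 44 extra rows), 13174 passed filterByExpr. Libraries were grouped by title. All were fitted together in edgeR 4.0.16 (R 4.3.3; TMM, quasi-likelihood test across all genes, 2-sided, Benjamini-Hochberg adjustment in each comparison, threshold 0.05). The fit was also run on simulated counts with planted changes and the spread fitted to these libraries. Its recovery is not reported here. The standard error is the log2 change over the root of F. Log2 CPM used a prior count of 2. Alternatives used DESeq2 1.42.0, limma 3.58.1 (voom), other scaling, other filters, fewer libraries and a replicate block. Positions are from GENCODE M21 (GRCm38) and promoters from RefSeq. Figures used matplotlib 3.10.9. The members, the gene lists and the naming rule (all 10 members, at most 4 called genes a list, the 5 most similar genes for each troponin T gene) were chosen with earlier results of these data known.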

Additional observations from a re-analysis of the deposited data

How the results depend on the processing

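The number of these genes called in Control against Normal was 1, and 2 with no filter, in DESeq2 and without Normal 3 (1 to 2 over left-out libraries). In RP against Normal it was 1, and 2 with no filter and in DESeq2, 0 with only the 2 groups in the fit and 0 with the replicate block (0 to 2 over left-out libraries; 0 without RP 1). With the block the edgeR adjusted p of Tpm1 in RP against Normal was 0.0527. Same-numbered libraries had correlations of deviations from their group means of -0.0682 to 0.0795. With groups of 2 or 3 libraries these cannot decide whether the numbers pair the libraries. In RP against Control the number of these genes called was 0 throughout. Leaving out an RP library left that group with 1, whose spread was then taken from the other groups. Over all genes the calls in Control against Normal, 1376, ran from 608 (without Control 3) to 1858 (without Normal 1), with 805, 609 and 846 without Normal 2, Control 1 and Control 2. In RP against Control, 23 calls became 204 with no filter, 11 at a mean CPM of at least 5, 112 in DESeq2, 10 in limma-voom, 121 with only 2 groups, and 8 to 72 over left-out libraries. In RP against Normal, 330 became 718 with no filter, 676 in DESeq2, 100 with only 2 groups, and 57 to 670 over left-out libraries. No scaling moved the median of all genes by over 0.1.

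Signs turned only for log2 changes that were not called. Tnnc1 in Control against Normal was 0.022 with upper-quartile scaling. Tnnt1 and Tpm3 in RP against Control were 0.017 and 0.019 with the replicate block. Tnnt1 in RP against Normal was 0.00038 with upper-quartile scaling, 0.054 in limma-voom, 0.0048 with only 2 groups, 0.19 with the replicate block and 0.0029 without haemoglobin genes and Rn45s. Over left-out libraries, Control against Normal gave -0.089 to 0.45 for Tnnt1, -0.29 to 0.18 for Tnnt2, -0.073 to 0.25 for Tnnt3, -0.20 to 0.15 for Tnni1, -0.060 to 0.36 for Tnni2 and -0.20 to 0.21 for Tnnc1. RP against Control gave -0.89 to 0.085 for Tnnt2, -0.060 to 0.12 for Tnnt3, -0.11 to 0.35 for Tpm2 and -0.13 to 0.068 for Tpm3, and RP against Normal -0.21 to 0.35 for Tnnt1 and -0.036 to 0.31 for Tnnt3. The cause of these shifts was not tested. With 15 to 47 reads a library, Tnnt2 is limited by depth.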
